A study of Homo sapiens with 12 samples.

Results

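RNA of Hs-578T cells labelled MEK5DD was compared with that of Hs-578T parental controls. The comparison took the 2 libraries labelled MEK5DD and the 2 libraries of parental controls by their labels, 4 of the 12 libraries sequenced, and covered 17665 protein-coding genes, of which 13737 passed a filter on low values and were tested. Hs-578T is an established triple-negative breast cancer cell line with a mesenchymal appearance. MEK5DD is a constitutively active form of the kinase MEK5, in which aspartates stand in for the residues that are normally phosphorylated. The other 8 libraries are 2 of Hs-578T cells labelled ERK5-ko and 2 each of parental controls, ERK5-ko and MEK5DD cells of MDA-MB-231, a further triple-negative line. RNA was taken from all cells at 70% confluence. How the MEK5DD cells were made, which promoter drove the kinase and whether the cells are a pool or a clone are not given in the sources used here. The library names carry the tags p83 and p84 in Hs-578T parental controls and p8 and p9 in both other Hs-578T groups, which were read as passage numbers. Passage and MEK5DD therefore cannot be told apart in the comparison with parental controls. The paper made its ERK5-ko cells from Hs-578T cells at passage 70, so tags of modified cells may count from their making. The size of the passage gap is thus not known. Nothing states that the replicates were separate cultures, so p-values rest on a spread between replicate libraries that may be technical. That spread was pooled over all 12 libraries, and replicates of the groups outside the comparison lay closer together.

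MEK5 is a dual-specificity kinase of the mitogen-activated protein kinase (MAPK) family, and ERK5, encoded by MAPK7, is its known substrate. MEKK2 and MEKK3, encoded by MAP3K2 and MAP3K3, activate MEK5. Active ERK5 phosphorylates MEF2 transcription factors and, through a transcriptional activation domain of its own, raises the expression of genes such as KLF2 and KLF4. In breast cancer cells the pathway has been studied for its links to proliferation, migration and epithelial-to-mesenchymal transition (EMT).

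The 4 libraries held between 20248162 and 22850760 reads, and all 12 between 20248162 and 27791195. Values are RPKM, reads on a gene scaled to the length of its gene model and to the reads of its library, so that levels can be compared between genes. The replicates of MEK5DD differed by a median of 0.218 per gene on the log2 scale and those of parental controls by 0.161, against 0.071 to 0.114 in the 4 other groups. The deviations of same-numbered libraries from their group means correlated at 0.5406 across genes between parental controls and MEK5DD. Mitochondrially encoded genes took 1.474% and 0.522% of the reads in the MEK5DD libraries and 0.63% and 0.294% in parental controls. All 8 mesenchymal markers were expressed, with VIM (vimentin) between 3430 and 4070 RPKM in the 4 libraries. ESR1 and PGR, the oestrogen and progesterone receptors, stayed under 0.5 RPKM. ERBB2, the other subtype marker, had 38.9 and 43.8 RPKM in parental controls and 27.8 and 35.2 in MEK5DD libraries. It was lower at the adjusted p alone (log2 fold change -0.4, adjusted p = 0.0284 by limma) and was not called. Of 9 epithelial markers, 5 were under 0.5 RPKM in all 4 libraries, CDH1 and EPCAM among them. Of 11 blood cell markers in the table, 4 were tested and none was called by limma, with 1 at an unadjusted p under 0.05, while voom called 1 lower. All 11 summed to 39.7 and 45.4 RPKM in parental controls and 54.7 and 43.6 in MEK5DD libraries, of which CD68, a lysosomal protein, made up 37.9 and 43.6 RPKM in parental controls and 53.3 and 42 in MEK5DD libraries, and the defining markers CD3E and HBB were at 0 in all 4 libraries. Of 7 endothelial markers, 3 were tested and none was called by limma or by voom, with 2 at an unadjusted p under 0.05, and ERG and PECAM1 were lower at the adjusted p alone. All 7 summed to 11.7 and 12.7 RPKM in parental controls and 7.28 and 8.03 in MEK5DD libraries, with 5.71 and 6.13 RPKM in parental controls and 3.74 and 4.34 in MEK5DD libraries for ERG and 5.39 and 5.72 RPKM in parental controls and 2.81 and 2.96 in MEK5DD libraries for PECAM1. The part of such cells in the results was not tested.

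The MEK5 gene itself, MAP2K5 (ENSG00000137764.19, GRCh38 chromosome 15, 67542709 to 67807123), stood at 14.6 and 16.9 RPKM in parental controls and 21.3 and 23.8 in MEK5DD libraries. The groups did not overlap, and the log2 fold change was 0.50 (standard error 0.10, adjusted p = 0.00492, limma with Benjamini-Hochberg adjustment), a 1.42-fold difference that lies below the 1.5-fold threshold for a call. In MDA-MB-231 the same label went with 12.9 and 13.6 RPKM in parental controls and 188 and 184 in MEK5DD libraries. The direction in Hs-578T thus follows the label, at a much smaller size than in the other line. Reads of the introduced MEK5DD sequence and of the cell's own MAP2K5 cannot be told apart in these values. The ERK5 gene, MAPK7 (ENSG00000166484.19, chromosome 17, 19377721 to 19383544), had 14 and 16 RPKM in parental controls and 16.1 and 17.5 in MEK5DD libraries, a log2 fold change of 0.16 (adjusted p = 0.272).

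Of the 6 genes of the ERK5 cascade, MAP2K5, MAPK7 and the kinases around them, limma called none, with 3 at an unadjusted p under 0.05, and voom called 1 lower. MAP3K2 had 7.92 and 10.4 RPKM in parental controls and 6.98 and 9.94 in MEK5DD libraries (log2 fold change -0.12, adjusted p = 0.65) and MAP3K3 had 19.4 and 20.6 RPKM in parental controls and 14.6 and 18.8 in MEK5DD libraries (log2 fold change -0.26, adjusted p = 0.105). PRKCZ, an atypical protein kinase C that binds MEK5, was down to 3 reads or fewer in each MEK5DD library, from 0.314 and 0.296 RPKM in parental controls, at least 2.02-fold lower against a floor of 3 reads per library. Among 13 tested ERK5 target factors and targets, CCND1, which encodes the cell cycle regulator cyclin D1, was the only one called. It was higher (7.7% of the list, against 2.9% of all tested genes). Its level was 130 and 152 RPKM in parental controls and 240 and 259 in MEK5DD libraries, and the log2 fold change was 0.83 with a standard error of 0.10 (adjusted p = 0.000259). The orphan nuclear receptor gene NR4A1 went from 4.87 and 6.02 RPKM to 8.02 and 8.68 and missed the fold threshold (1.49-fold, adjusted p = 0.00868). The ERK5 target KLF4 was lower in both MEK5DD libraries, at 18.2 and 17.2 RPKM in parental controls and 10.8 and 13.4 in MEK5DD libraries (log2 fold change -0.54, adjusted p = 0.00556), short of the threshold of 0.5-fold. KLF2 overlapped between the groups, with 3.09 and 3.37 RPKM in parental controls and 2.07 and 3.86 in MEK5DD libraries (log2 fold change -0.16, adjusted p = 0.643). The MEF2 factors MEF2A and MEF2D overlapped too, MEF2C had 1.4 and 1.44 RPKM in parental controls and 1.8 and 2.0 in MEK5DD libraries (adjusted p = 0.045), and MEF2B had 5.36 and 5.74 RPKM in parental controls and 4.55 and 4.59 in MEK5DD libraries (adjusted p = 0.187). The 2 lists together therefore held 1 called gene among 19 tested.

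Across all tested genes, 398 were called higher in MEK5DD (2.9% of the genes tested, adjusted p under 0.05 and more than 1.5-fold) and 204 were called lower (1.49%, adjusted p under 0.05 and less than 0.5-fold). At the adjusted p alone, 884 genes were higher (6.44%) and 2329 lower (17.0%), so the stricter fold threshold for lower genes turned this order around. The 4 libraries did not overlap for any of the 602 called genes, while over all tested genes 15.7% were separate with MEK5DD higher and 34.2% with MEK5DD lower. The median log2 fold change of all tested genes was -0.083. Genes called higher made up 66.1% of the calls, 77.7% with quantile normalization (586 higher, 168 lower) and 76.0% with median-ratio scaling (539 and 170). Blocking on the replicate number gave 417 calls higher and 204 lower, among them all 602 of the fit without it. At the adjusted p alone the blocked fit had 1219 genes higher and 3054 lower. As each group holds a library of each replicate number, the block leaves every fold change as it was. That it kept the calls is therefore no independent check on them. The main fit pools the spread between replicates over all 12 libraries. Replicates of the other groups lay closer together, at medians of 0.071 to 0.114, than those of MEK5DD (0.218) and parental controls (0.161). From the 4 libraries alone, with 2 residual degrees of freedom, 17 genes were called higher and 45 lower, all of them among the 602. For a single gene, 0.333 is the smallest two-sided p that an exact permutation test of the 4 libraries allows.

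**Figure D1:**
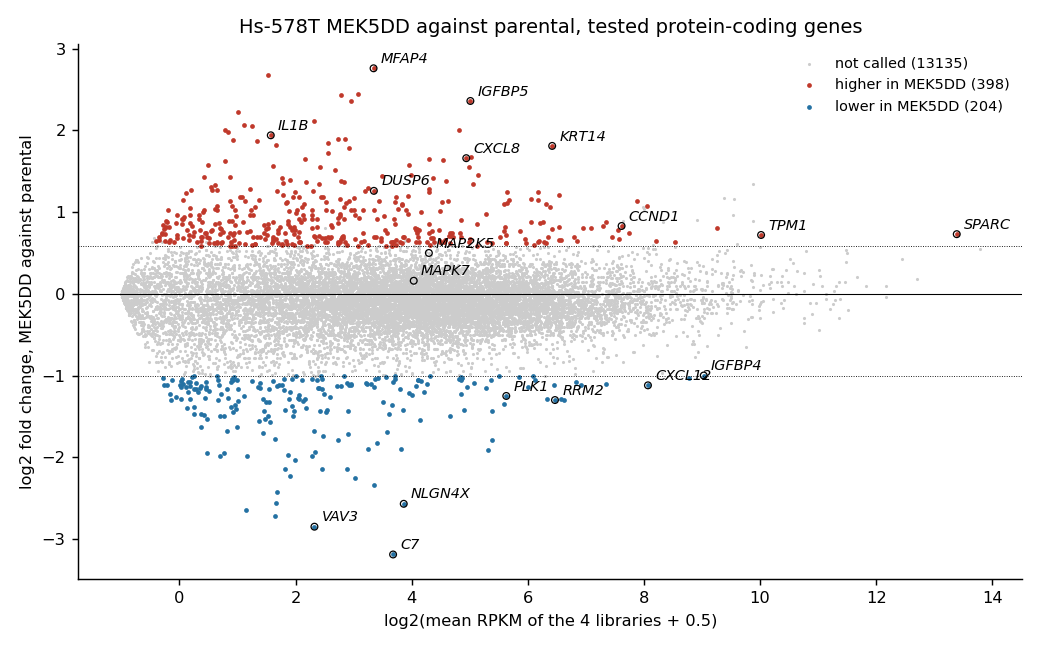
Each point is 1 of the 13737 tested protein-coding genes, with its mean level over the 4 libraries as log2(mean RPKM + 0.5) on the horizontal axis and its log2 fold change of Hs-578T MEK5DD against parental controls on the vertical axis. Coloured points mark the 398 genes called higher and the 204 called lower, which run from MFAP4 at 2.76 to C7 at -3.19.

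MFAP4, IGFBP5, KRT17, RARRES2, CNN1, SERPINB7, ALS2CL and MAGEB16 were the 8 genes called higher with the largest fold changes and a mean of at least 1 RPKM, between 4.34-fold and 6.79-fold. Folds are on the log2(RPKM + 0.5) scale, on which low genes appear less changed than they are. MFAP4 (ENSG00000166482.11, chromosome 17, 19383442 to 19387240), which encodes a glycoprotein of elastic microfibrils, was at 2.07 and 2.15 RPKM in parental controls and 17.4 and 17 in MEK5DD libraries (log2 fold change 2.76, standard error 0.09, adjusted p = 5.27e-08). Its gene model overlaps the end of MAPK7 on the opposite strand, and the strand setting of the counting is not given in the sources used here. In the libraries labelled ERK5-ko, MFAP4 stood at 0.133 and 0.144 RPKM. IGFBP5 (chromosome 2, 216672105 to 216695525), a secreted binding protein for insulin-like growth factors, had 8.36 and 11.9 RPKM in parental controls and 51.3 and 55.4 in MEK5DD libraries, a 5.13-fold difference (adjusted p = 4.9e-06). KRT17 (chromosome 17, 41619437 to 41624842), a keratin of basal epithelium, had 1.54 and 1.74 RPKM in parental controls and 12.3 and 9.81 in MEK5DD libraries (log2 fold change 2.43, adjusted p = 8.15e-06). CNN1 (chromosome 19, 11538717 to 11550323), the smooth muscle protein calponin 1, had 1.78 and 1.01 RPKM in parental controls and 8.1 and 7.03 in MEK5DD libraries (log2 fold change 2.12, adjusted p = 1.68e-05). In each of these 4 genes the lowest MEK5DD library was several-fold above the highest parental control. RARRES2 (chromosome 7, 150338317 to 150341674), the gene of the chemoattractant chemerin, had 1.79 and 2.06 RPKM in parental controls and 16.5 and 8.64 in MEK5DD libraries, so its MEK5DD replicates differed from each other by more than the parental replicates did. ALS2CL (chromosome 3, 46668997 to 46693704) had 2.05 and 2.09 RPKM in parental controls and 16.7 and 11 in MEK5DD libraries, and SERPINB7 (chromosome 18, 63752935 to 63805376), a serine protease inhibitor, had 0.215 and 0.169 RPKM in parental controls and 3.64 and 2.05 in MEK5DD libraries. MAGEB16 (chromosome X, 35798342 to 35803735), of the MAGE family of cancer-testis antigens, had 0.254 and 0.308 RPKM in parental controls and 4.81 and 4.21 in MEK5DD libraries, on reads that may be shared with its paralogs.

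C7, VAV3, REEP1, MUC15, NLGN4X, PI15, BRINP1 and HBE1 were the 8 genes called lower with the largest changes. Their folds were between 0.11 and 0.197 on the log2(RPKM + 0.5) scale, and by RPKM alone the low genes among them kept less. C7 (ENSG00000112936.18, chromosome 5, 40909252 to 40982939), a component of the complement membrane attack complex, was at 23.2 and 22 RPKM in parental controls and 2.12 and 1.95 in MEK5DD libraries (log2 fold change -3.19, standard error 0.12, adjusted p = 5.27e-08). VAV3 (chromosome 1, 107571160 to 107965144), a guanine nucleotide exchange factor, had 7.37 and 9.24 RPKM in parental controls and 0.633 and 0.803 in MEK5DD libraries (log2 fold change -2.85, adjusted p = 2.38e-07). Both were far apart between the groups and close within them. REEP1 (chromosome 2, 86213993 to 86338083), an endoplasmic reticulum shaping protein, had 4.95 and 4.9 RPKM in parental controls and 0.37 and 0.281 in MEK5DD libraries, and MUC15 (chromosome 11, 26559033 to 26572233), a membrane mucin, had 3.22 and 3.44 RPKM in parental controls and 0.0973 and 0.134 in MEK5DD libraries. NLGN4X (chromosome X, 5840637 to 6228863), a neuroligin of synaptic adhesion, had 22.2 and 26.4 RPKM in parental controls and 2.65 and 4.99 in MEK5DD libraries, with its MEK5DD replicates about as far apart as those of RARRES2. BRINP1 (chromosome 9, 119153458 to 119369467), a protein of neural cells, had 4.5 and 5.33 RPKM in parental controls and 0.466 and 0.542 in MEK5DD libraries (log2 fold change -2.43, adjusted p = 7.42e-07). PI15, a peptidase inhibitor, had 4.63 and 5.18 RPKM in parental controls and 0.51 and 0.336 in MEK5DD libraries (log2 fold change -2.56, adjusted p = 4.54e-07). HBE1 (chromosome 11, 5268345 to 5505617), listed as epsilon globin, had 18.3 and 14.6 RPKM in parental controls and 4.11 and 1.9 in MEK5DD libraries, but its gene model spans the neighbouring globin and olfactory receptor genes, so the reads cannot be assigned to epsilon globin. Of these 16 leading genes, MFAP4, MAGEB16, KRT17, IGFBP5, BRINP1, PI15, MUC15, REEP1, VAV3 and C7 were also called from the 4 libraries alone.

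**Figure D2:**
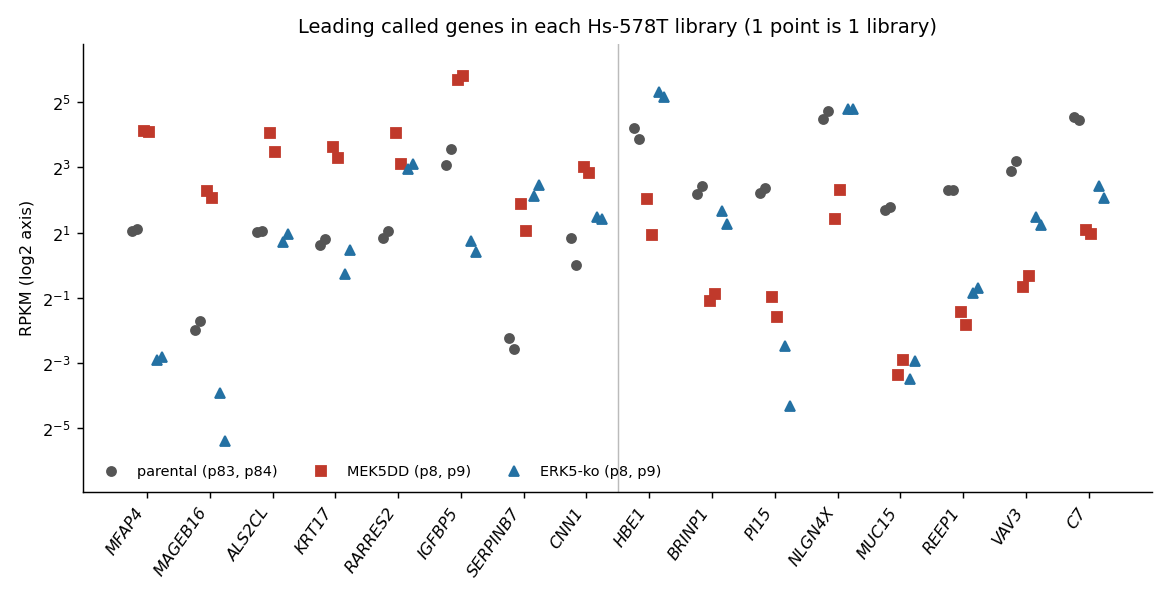
RPKM on a log axis for the leading genes called higher and lower, with 1 point per Hs-578T library: parental controls (p83, p84), MEK5DD (p8, p9) and ERK5-ko (p8, p9). The MEK5DD points of MFAP4 and IGFBP5 sit above those of both other groups, whereas those of REEP1 and MUC15 lie beside those of ERK5-ko, far below the parental controls.

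The most abundant genes called higher were SPARC, TPM1, MYL12A, MYL12B and SCD. SPARC, a matricellular glycoprotein that binds collagen, went from 8003 and 8027 RPKM to 14040 and 12660 (log2 fold change 0.73, adjusted p = 0.0289). It was called in 9 of 19 alternatives, with log2 fold changes between 0.00 and 0.83, and not in the fit of the 6 Hs-578T libraries (adjusted p = 0.17). TPM1, an actin-binding tropomyosin, went from 787 and 776 RPKM to 1228 and 1350 (log2 fold change 0.72, adjusted p = 0.000639). The myosin regulatory light chain genes MYL12A and MYL12B, which lie side by side and are near-identical paralogs, went from 469 and 420 RPKM to 883 and 676 and from 312 and 263 RPKM to 524 and 378. SCD, the stearoyl-CoA desaturase of fatty acid synthesis, had 197 and 259 RPKM in parental controls and 286 and 438 in MEK5DD libraries and was not called in the fit of the 6 Hs-578T libraries (adjusted p = 0.194). The most abundant genes called lower were IGFBP4, FHL1, CXCL12, MGP and TOP2A. IGFBP4, a further binding protein of insulin-like growth factors, went from 687 and 705 RPKM to 365 and 331 (0.499-fold, adjusted p = 0.00021), opposite in direction to IGFBP5. FHL1, a LIM domain protein, went from 670 and 513 RPKM to 280 and 292 (log2 fold change -1.03, adjusted p = 0.00021) and MGP, the matrix Gla protein that inhibits calcification, from 233 and 212 RPKM to 114 and 93.2 (log2 fold change -1.10, adjusted p = 0.000279).

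Cell cycle genes were lower in MEK5DD. All 40 tested genes of the cell cycle and mitosis list had a negative log2 fold change, with a median of -0.79 against -0.083 over all genes, and for 36 of them both MEK5DD libraries lay below both parental controls, as they did for 34.2% of all tested genes. At the adjusted p alone 33 (82.5%) were lower, and 36 with the replicate block, against 17.0% of all tested genes. Past the threshold of 0.5-fold were 9, or 22.5% against 1.49%. These 9 were RRM2, PLK1, MCM2, MYBL2, GINS2, KIF20A, TOP2A, UBE2C and CDT1. PLK1, the polo-like kinase of mitotic entry, had 74.9 and 63.5 RPKM in parental controls and 25.6 and 32 in MEK5DD libraries (log2 fold change -1.25, standard error 0.13, adjusted p = 6.37e-05). TOP2A, the topoisomerase that untangles sister chromatids, had 142 and 185 RPKM in parental controls and 58.5 and 95 in MEK5DD libraries (log2 fold change -1.11, standard error 0.20, adjusted p = 0.00226). MCM2, a subunit of the replicative helicase, had 42.8 and 37.2 RPKM in parental controls and 15.4 and 18 in MEK5DD libraries (log2 fold change -1.23, standard error 0.10, adjusted p = 1.44e-05). The replicates of PLK1 and MCM2 lay close together, and those of TOP2A were further apart. RRM2, a subunit of ribonucleotide reductase, went from 133 and 116 RPKM to 42.6 and 59.4 (log2 fold change -1.30, adjusted p = 0.000105). MYBL2, a transcription factor of dividing cells, went from 60.4 and 45.5 RPKM to 19.3 and 28.1 (log2 fold change -1.15, adjusted p = 0.000617), and UBE2C, a ubiquitin-conjugating enzyme of mitotic exit, from 100 and 87.3 RPKM to 44.5 and 44.9 (log2 fold change -1.06, adjusted p = 3.23e-05). At the other end of the list were CDK1, at 44.2 and 31.1 RPKM in parental controls and 35.6 and 30.3 in MEK5DD libraries (log2 fold change -0.17, adjusted p = 0.427), and MKI67, the gene of the Ki-67 antigen, at 4.97 and 11.2 RPKM in parental controls and 3.43 and 7.01 in MEK5DD libraries (log2 fold change -0.56, adjusted p = 0.235). The list thus ranged from changes of more than 2-fold to genes that overlapped between the groups.

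Cell cycle genes are grouped in textbooks by the elements of their promoters, CCAAT boxes and the cell cycle genes homology region TTTGAA for mitotic genes and E2F sites, here TTTNNCGC, for replication genes. Promoter windows of RefSeq on GRCh38.p14, from 250 bases before to 50 after the start of transcription, are shown 5′ to 3′ on the gene's strand for a pair of mitotic genes and a replication gene among the 9. Capitals mark matches on either strand. In PLK1 (chr16:23678639-23678938, plus strand) and TOP2A (chr17:40417847-40418146, minus strand) they mark CCAAT and TTTGAA, with 1 match each in PLK1 and 4 and 2 in TOP2A. In MCM2 (chr3:127598161-127598460, plus strand) they mark 2 overlapping matches of TTTNNCGC, 1 on each strand, and the window holds no CCAAT.
PLK1: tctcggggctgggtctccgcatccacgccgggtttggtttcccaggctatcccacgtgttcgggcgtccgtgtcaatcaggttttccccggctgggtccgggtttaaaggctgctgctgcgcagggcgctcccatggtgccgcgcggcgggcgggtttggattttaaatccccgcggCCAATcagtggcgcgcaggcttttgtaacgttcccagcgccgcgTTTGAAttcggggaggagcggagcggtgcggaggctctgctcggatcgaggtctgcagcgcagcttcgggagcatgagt
TOP2A: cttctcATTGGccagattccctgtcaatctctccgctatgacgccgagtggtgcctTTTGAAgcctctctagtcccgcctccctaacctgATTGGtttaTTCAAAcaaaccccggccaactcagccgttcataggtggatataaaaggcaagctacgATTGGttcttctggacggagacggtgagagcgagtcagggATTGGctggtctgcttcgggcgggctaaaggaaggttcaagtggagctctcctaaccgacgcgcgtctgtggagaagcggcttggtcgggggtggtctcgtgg
MCM2: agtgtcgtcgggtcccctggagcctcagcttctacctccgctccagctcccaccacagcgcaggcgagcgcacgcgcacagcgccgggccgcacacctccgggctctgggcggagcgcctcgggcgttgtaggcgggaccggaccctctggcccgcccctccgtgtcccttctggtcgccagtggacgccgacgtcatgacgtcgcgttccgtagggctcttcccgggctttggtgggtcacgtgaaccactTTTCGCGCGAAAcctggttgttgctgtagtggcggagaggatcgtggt
Promoter windows were found for 32 of the 40 genes, 38 windows in all. CCAAT was in 31 of the 38 (81.6%) against 34.6% of all 35116 windows, TTTGAA in 14 (36.8%) against 15.2%, and TTTNNCGC in 14 (36.8%) against 6.89%. A match is a description of the letters and not a bound site.

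In the libraries labelled ERK5-ko the cell cycle list lay on the other side of the parental controls. There, 34 of the 40 genes were called higher than in parental controls (median log2 fold change 0.82) and none lower, where 9.35% of all tested genes were called higher and 3.27% lower. MEK5DD against ERK5-ko, at the same passage tags, gave 38 called lower, against 5.82% of all tested genes, and a median of -1.67. PLK1 was at 110 and 99.1 RPKM, MCM2 at 77 and 83.4 and TOP2A at 240 and 268 in ERK5-ko. Relative to the mean of the parental controls, the median of the list was -0.98 and -0.69 in the MEK5DD libraries and 0.74 and 0.90 in the ERK5-ko libraries. Without MEK5DD replicate 1 the list held 5 genes called lower, and without MEK5DD replicate 2 it held 18. The median of the list stayed between -0.98 and -0.69 in every alternative fitted. From the 4 libraries alone limma called none of the 40, and 30 had an unadjusted p under 0.05. In MDA-MB-231 MEK5DD, 5 of the 40 were called higher, against 7.64% of all tested genes, and none lower (median 0.36). In bulk RNA, fewer dividing cells and less of these transcripts per cell cannot be told apart.

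**Figure D3:**
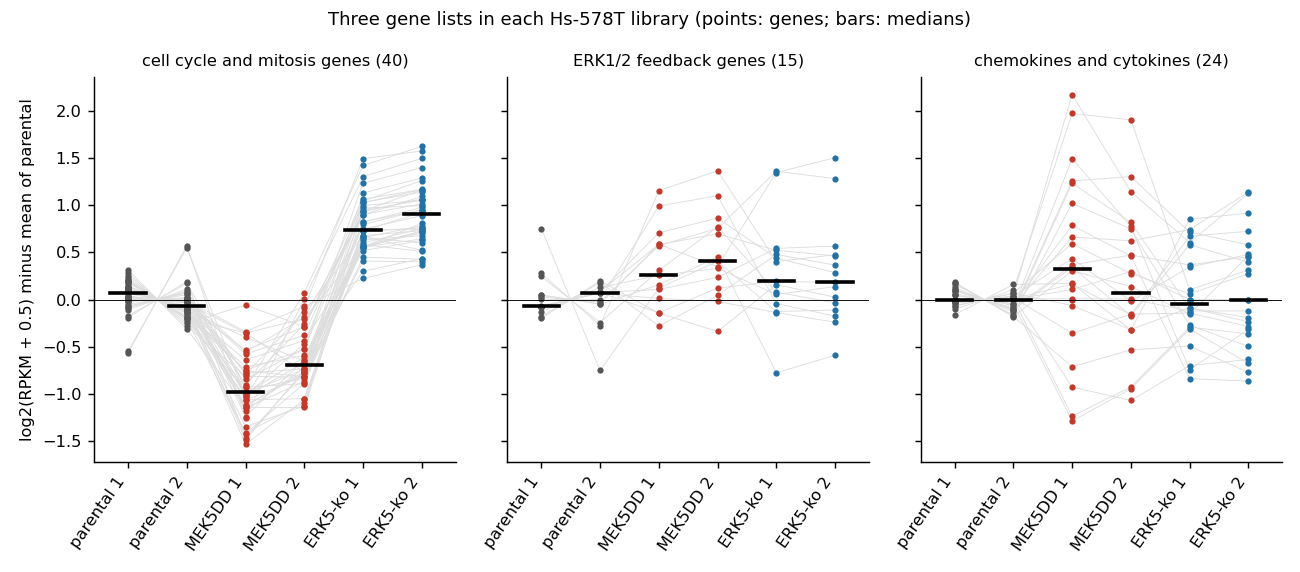
Log2 level of each gene relative to the mean of the Hs-578T parental controls, in each of the 6 Hs-578T libraries, for 3 gene lists, with the median of each list marked. The cell cycle list shifts to medians of -0.98 and -0.69 in MEK5DD and to 0.74 and 0.90 in ERK5-ko.

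Feedback genes of the ERK1/2 pathway, a sister cascade of MEK5 and ERK5, were among the genes called higher. Of 15 tested, 5 were called higher (33.3% against 2.9% of all genes), none lower, and the median was 0.30. In ERK5-ko, 2 of the 15 were called higher than in parental controls and none lower (median 0.19), where 9.35% of all tested genes were called higher. In MDA-MB-231 MEK5DD, 2 were called higher and none lower (median -0.33), where 7.64% of all tested genes were called higher. DUSP6, a phosphatase of ERK1/2, had 6.75 and 4.44 RPKM in parental controls and 12.8 and 14.9 in MEK5DD libraries (log2 fold change 1.26, standard error 0.15, adjusted p = 0.000197). SPRY2, a Sprouty inhibitor of receptor tyrosine kinase signalling, had 8.38 and 8.35 RPKM in parental controls and 17.1 and 18.5 in MEK5DD libraries (log2 fold change 1.04, standard error 0.09, adjusted p = 1.68e-05), and SPRY4 had 4.85 and 5.51 RPKM in parental controls and 8.0 and 8.68 in MEK5DD libraries (log2 fold change 0.64, standard error 0.09, adjusted p = 0.000617). The phosphatase genes DUSP5 and DUSP4 went from 2.16 and 2.46 RPKM to 4.08 and 4.6 and from 1.01 and 0.955 RPKM to 1.7 and 2.0. Of the 15, 10 were separate with MEK5DD higher and none with MEK5DD lower, against 15.7% and 34.2% of all tested genes. The 5 called genes are among the 10 by necessity, since no called gene overlapped between the groups. DUSP1 (30.9 and 10.6 RPKM in parental controls and 19.8 and 24.2 in MEK5DD libraries) and DUSP7 (8.14 and 9.07, and 7.75 and 9.39) were among those that overlapped. The ETS factor gene ETV5 had 77.4 and 86 RPKM in parental controls and 87.9 and 96.1 in MEK5DD libraries (log2 fold change 0.17, adjusted p = 0.168). ETV4 had 10.1 and 9.47 RPKM in parental controls and 14.9 and 12.6 in MEK5DD libraries (log2 fold change 0.47, adjusted p = 0.0081), and neither was called. Of the called genes, DUSP4 (3.3 and 3.1 RPKM) was higher in ERK5-ko than in MEK5DD. DUSP6 (7.41 and 7.81), SPRY2 (8.11 and 7.35), SPRY4 (7.64 and 7.31) and DUSP5 (3.3 and 2.92) were lower there than in MEK5DD. Without MEK5DD replicate 2 the calls in this list were 3.

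Of 15 AP-1 and other immediate early genes, 2 were called, both higher (13.3% against 2.9% of all tested genes), and both were EGR factors, which serum and growth factors induce. EGR2 had 1.35 and 1.36 RPKM in parental controls and 3.91 and 5.07 in MEK5DD libraries (log2 fold change 1.42, adjusted p = 2.83e-05), and EGR3 had 1.22 and 1.19 RPKM in parental controls and 1.65 and 2.65 in MEK5DD libraries (log2 fold change 0.61, adjusted p = 0.0134). The AP-1 subunit gene FOS spanned 110 and 10.1 RPKM in parental controls and 35.5 and 55.9 in MEK5DD, so its parental replicates differed more than the groups did (adjusted p = 0.778). FOSL1 had 48.6 and 48.5 RPKM in parental controls and 42.9 and 46.3 in MEK5DD libraries (log2 fold change -0.12, adjusted p = 0.363) and JUN 41 and 31 RPKM in parental controls and 36.3 and 52.9 in MEK5DD libraries (log2 fold change 0.29, adjusted p = 0.218). The promoter of EGR2, the leading gene of this list, is shown in 1 of 3 windows that RefSeq gives (chr10:62816317-62816616, minus strand, GRCh38.p14). This window was picked for its CArG box, the element bound by serum response factor, shown in capitals. The other EGR2 windows hold none, and 1.29% of all windows hold it.
EGR2: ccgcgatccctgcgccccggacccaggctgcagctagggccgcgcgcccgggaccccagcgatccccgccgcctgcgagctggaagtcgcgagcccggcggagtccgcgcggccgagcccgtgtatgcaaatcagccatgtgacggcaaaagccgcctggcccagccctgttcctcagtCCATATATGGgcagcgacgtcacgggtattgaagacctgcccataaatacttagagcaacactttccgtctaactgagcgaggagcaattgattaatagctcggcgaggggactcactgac

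Chemokine and cytokine genes moved in both directions. Of 24 tested, 8 were called higher (33.3% against 2.9% of all genes) and 2 lower (8.3% against 1.49%). IL1B, the inflammatory cytokine interleukin 1 beta, had 0.648 and 0.824 RPKM in parental controls and 4.33 and 4.11 in MEK5DD libraries (log2 fold change 1.94, standard error 0.12, adjusted p = 4.66e-06). IL1A had 0.124 and 0.0228 RPKM in parental controls and 0.84 and 0.507 in MEK5DD libraries (log2 fold change 1.02, standard error 0.14, adjusted p = 0.000502), and IL1RN, the antagonist of their common receptor, had 0.689 and 0.549 RPKM in parental controls and 2.64 and 1.41 in MEK5DD libraries (log2 fold change 1.13, standard error 0.22, adjusted p = 0.00433). The agonists and the antagonist of the interleukin 1 family were thus higher together. CXCL8, the neutrophil chemokine interleukin 8, had 13.2 and 14 RPKM in parental controls and 63 and 30.6 in MEK5DD libraries (log2 fold change 1.66, adjusted p = 0.00131), with a wide spread between the MEK5DD replicates. IL11 went from 11.9 and 10.2 RPKM to 27 and 27.9 (log2 fold change 1.28, adjusted p = 0.000138), IL6 from 13.7 and 12.5 RPKM to 21 and 20.4 (log2 fold change 0.64, adjusted p = 0.00529), IL32 from 51.4 and 41 RPKM to 93.6 and 77.4 (log2 fold change 0.88, adjusted p = 0.00212) and CCL28 from 0.721 and 0.648 RPKM to 1.54 and 1.13 (log2 fold change 0.62, adjusted p = 0.00351). CXCL12, a chemokine of stromal cells and the ligand of CXCR4, was lower, with 378 and 355 RPKM in parental controls and 150 and 190 in MEK5DD libraries (log2 fold change -1.12, adjusted p = 0.000305). CSF1, the growth factor of macrophages, was lower too, with 154 and 155 RPKM in parental controls and 65.4 and 81.1 in MEK5DD libraries (log2 fold change -1.08, adjusted p = 6.51e-05). The abundant CXCL12 and CSF1 fell while lower-abundance interleukins rose, so the summed level of the list went from 681 and 644 to 501 and 492 RPKM. The fit of the 6 Hs-578T libraries called 5 of the list higher and 2 lower, and CXCL8 (adjusted p = 0.0504) and IL1RN (0.0624) were among those lost. From the 4 libraries alone limma called 1 of the list, IL1B, and 15 had an unadjusted p under 0.05. In ERK5-ko, 5 of the 24 were called higher than in parental controls and none lower, where 9.35% of all tested genes were called higher. There IL6 had 22.2 and 29.4 RPKM and CXCL8 20.9 and 30.2, while IL1B had 0.825 and 1.03. The promoter window of CXCL8 (chr4:73740319-73740618, plus strand, RefSeq, GRCh38.p14) holds an AP-1 element of the letters TGANTCA, shown in capitals, as do 7.71% of all windows.
CXCL8: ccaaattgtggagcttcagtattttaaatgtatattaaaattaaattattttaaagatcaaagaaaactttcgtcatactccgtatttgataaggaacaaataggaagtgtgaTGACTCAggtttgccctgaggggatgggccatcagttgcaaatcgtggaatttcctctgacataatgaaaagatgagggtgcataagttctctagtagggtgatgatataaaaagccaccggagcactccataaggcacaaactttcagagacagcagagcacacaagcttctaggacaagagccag

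**Figure D4:**
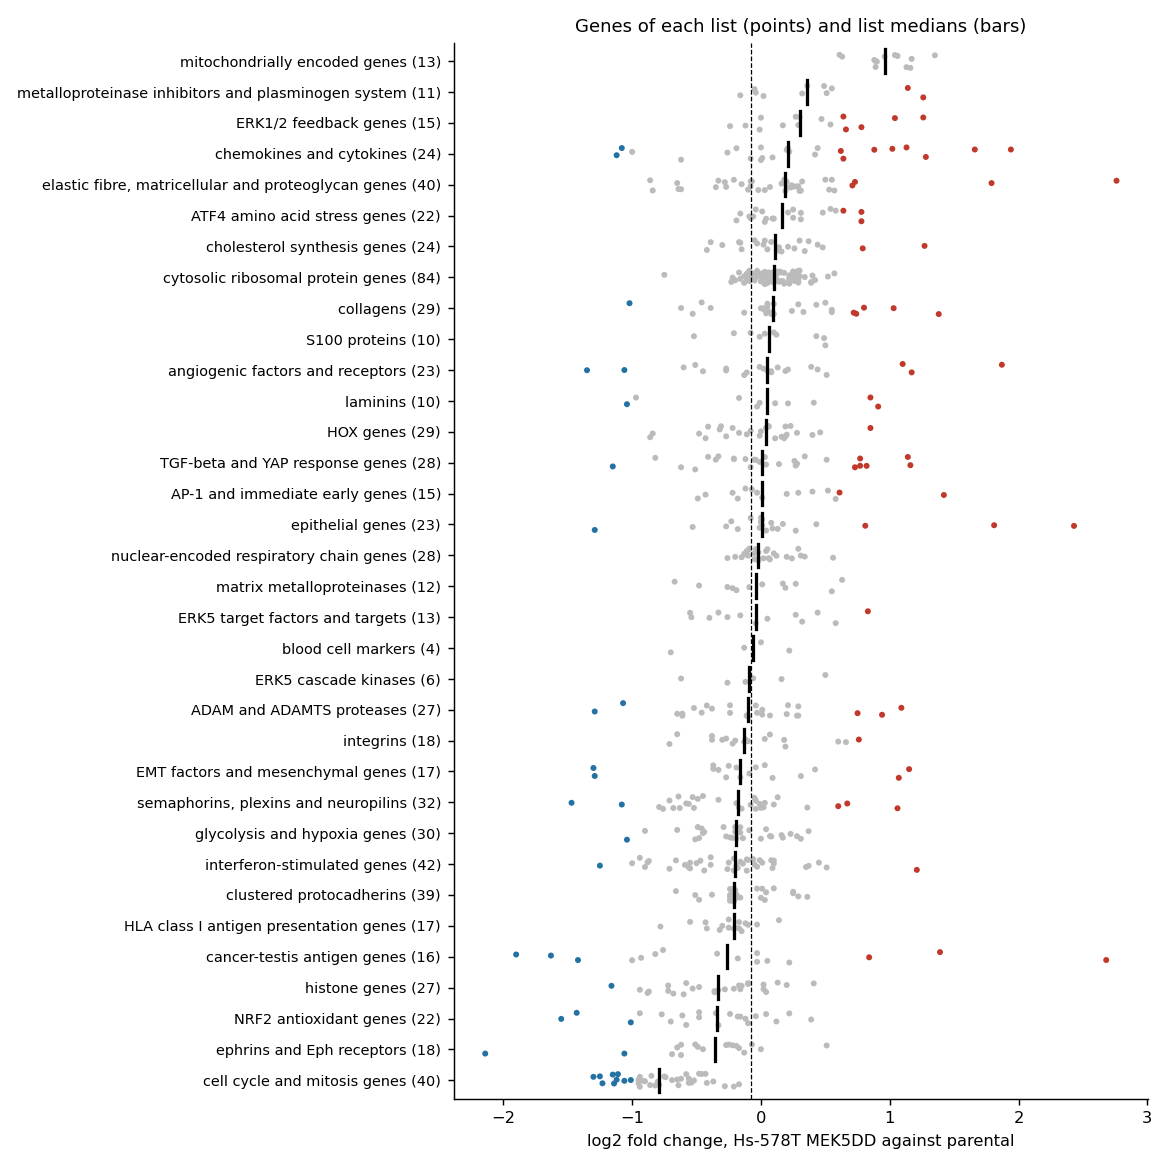
Log2 fold change of Hs-578T MEK5DD against parental controls for each tested gene (points) of the gene lists shown. Bars mark the median of each list, and the dashed line marks the median of all 13737 tested genes (-0.083). Coloured points are genes called higher or lower. The median of the cell cycle list lies at -0.79, that of the ERK1/2 feedback list at 0.30 and that of the cytokine list at 0.21.

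Genes of the extracellular matrix moved in both directions, with more calls upward under the stricter fold threshold for lower genes. Of 40 tested elastic fibre, matricellular and proteoglycan genes, 4 were called higher (against 2.9% of all tested genes) and none lower, namely MFAP4, TNC, SPARC and FBN2. With no fold threshold, at the adjusted p alone, 7 were higher and 6 lower, and without parental replicate 2 the genes called higher were 7. TNC, the adhesion-modulating glycoprotein tenascin C, had 2.3 and 3.56 RPKM in parental controls and 10.5 and 11.9 in MEK5DD libraries (log2 fold change 1.79, standard error 0.15, adjusted p = 2.22e-05). FBN2, the microfibril protein fibrillin 2, had 2.48 and 4.07 RPKM in parental controls and 4.51 and 6.81 in MEK5DD libraries (log2 fold change 0.71, standard error 0.20, adjusted p = 0.0259), called in 11 of 19 alternatives. Of 29 collagens, 5 were called higher (17.2%) and COL5A3 lower (3.4% against 1.49% of all tested genes). The adjusted p alone gave 7 higher and 4 lower, voom called 5 higher and 4 lower, and without parental replicate 2 the calls were 9 higher and 0 lower. COL15A1, a collagen of basement membrane zones, had 11.3 and 14.6 RPKM in parental controls and 34.5 and 34.2 in MEK5DD libraries (log2 fold change 1.38, adjusted p = 3.65e-05). COL8A2 went from 5.31 and 5.45 RPKM to 10.9 and 12.2, COL7A1, the anchoring fibril collagen, from 84.9 and 114 RPKM to 179 and 163, COL16A1 from 143 and 176 RPKM to 244 and 288 and COL6A6 from 1.15 and 2.19 RPKM to 2.25 and 3.85. COL5A3 went from 71.9 and 80.7 RPKM to 29.1 and 47.9 (log2 fold change -1.02, adjusted p = 0.00234). COL3A1, a major fibrillar collagen, was not called and had 2250 and 2590 RPKM in parental controls and 2220 and 2770 in MEK5DD libraries (log2 fold change 0.04, adjusted p = 0.898). Of 10 laminin genes, 2 were called higher, LAMA1 (0.168 and 0.284 RPKM in parental controls and 0.82 and 0.897 in MEK5DD libraries) among them, and LAMA4 (10.7 and 16.4 RPKM in parental controls and 5.24 and 7.28 in MEK5DD libraries) was called lower. By voom and by the adjusted p alone, 2 laminins were higher and 2 lower, and without parental replicate 2 the calls were 4 higher and 0 lower. ITGB8, an integrin subunit that activates TGF-beta, was the only one of 18 integrins called (5.6% higher, against 2.9% of all tested genes). It had 2.24 and 2.99 RPKM in parental controls and 4.67 and 4.82 in MEK5DD libraries (log2 fold change 0.76, adjusted p = 0.00161). The replicate block added a further integrin call. Without the fold thresholds, 1 integrin was higher and 3 were lower.

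None of 12 tested matrix metalloproteinases was called by limma, where 4 had an unadjusted p under 0.05, while voom and the replicate block each called 1 higher. MMP14, a membrane-anchored collagenase, had 368 and 445 RPKM in parental controls and 444 and 479 in MEK5DD libraries, and MMP2, a gelatinase, had 747 and 839 RPKM in parental controls and 687 and 701 in MEK5DD libraries. Among 11 metalloproteinase inhibitors and genes of the plasminogen system, 2 were called higher (18.2% against 2.9% of all tested genes) and none lower. SERPINB2, an inhibitor of plasminogen activators, was among the 2. SERPINB2 had 1.23 and 1.48 RPKM in parental controls and 5.38 and 2.82 in MEK5DD libraries (log2 fold change 1.26, standard error 0.24, adjusted p = 0.0036). The urokinase gene PLAU had 237 and 234 RPKM in parental controls and 350 and 341 in MEK5DD libraries (log2 fold change 0.55, adjusted p = 0.00136), and TIMP3 199 and 237 RPKM in parental controls and 306 and 312 in MEK5DD libraries (log2 fold change 0.51, adjusted p = 0.00274), both short of 1.5-fold. Of 27 ADAM and ADAMTS proteases, 3 were called higher (11.1% against 2.9% of all tested genes) and 2 lower (7.4% against 1.49%), while at the adjusted p alone 3 were higher and 8 lower (29.6% against 17.0%). ADAMTS14, a procollagen N-proteinase, had 7.97 and 9.35 RPKM in parental controls and 19.4 and 18.6 in MEK5DD libraries (log2 fold change 1.09, adjusted p = 0.000315), and ADAMTS15, an aggrecanase, had 4.72 and 6.2 RPKM in parental controls and 1.7 and 2.15 in MEK5DD libraries (log2 fold change -1.29, adjusted p = 0.000151). ADAM33 and ADAMTS6 were the further genes called higher, and ADAM22 was the further gene called lower.

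Markers of EMT did not move one way. Of 17 EMT factors and mesenchymal genes, FAP and TAGLN were called higher and ACTA2 and JAG1 lower (11.8% each way, against 2.9% and 1.49% of all tested genes). FAP, the fibroblast activation protein, had 42.9 and 45.8 RPKM in parental controls and 101 and 96.7 in MEK5DD libraries (log2 fold change 1.15, standard error 0.10, adjusted p = 3.16e-05). The contractile genes TAGLN (transgelin) and ACTA2 (smooth muscle actin, with close paralogs) went opposite ways, from 201 and 143 RPKM to 380 and 334 (log2 fold change 1.07, adjusted p = 0.000514) and from 157 and 124 RPKM to 52.5 and 60.6 (log2 fold change -1.30, adjusted p = 4.86e-05). JAG1, a Notch ligand, had 116 and 107 RPKM in parental controls and 34.3 and 60.0 in MEK5DD libraries (log2 fold change -1.29, adjusted p = 0.000702). Among the transcription factors of EMT, ZEB1 had 22.3 and 28.7 RPKM in parental controls and 31.5 and 36.4 in MEK5DD libraries (log2 fold change 0.42, adjusted p = 0.034) and SNAI2 74.6 and 68.5 RPKM in parental controls and 57.2 and 53.2 in MEK5DD libraries (log2 fold change -0.37, adjusted p = 0.0108), both short of the fold thresholds. Of 23 tested epithelial genes, 3 were called higher (13.0% against 2.9% of all tested genes) and 1 lower (4.3% against 1.49%). Those called higher were 3 of the 6 keratins, KRT7, KRT14 and KRT17, while ESRP1, an epithelial splicing regulator, was called lower. KRT14, the basal keratin that pairs with keratin 5, had 38.7 and 35.7 RPKM in parental controls and 147 and 118 in MEK5DD libraries (log2 fold change 1.81, adjusted p = 9.1e-06), and shares sequence with KRT17. KRT7, a keratin of simple epithelia, had 12.8 and 10.4 RPKM in parental controls and 22.8 and 18.7 in MEK5DD libraries (log2 fold change 0.81, adjusted p = 0.0016). KRT18, the most abundant keratin, had 213 and 141 RPKM in parental controls and 157 and 192 in MEK5DD libraries (log2 fold change 0.00, adjusted p = 1), and KRT8 and KRT19 were not called either (log2 fold changes 0.43 and -0.18). ESRP1 had 1.27 and 0.955 RPKM in parental controls and 0.136 and 0.179 in MEK5DD libraries (log2 fold change -1.29, adjusted p = 0.000285). CDH1 (E-cadherin) had 0.119 and 0.218 RPKM in parental controls and 0.0669 and 0.198 in MEK5DD libraries and EPCAM 0.0774 and 0.0427 RPKM in parental controls and 0.0437 and 0.0862 in MEK5DD libraries, so these defining epithelial genes were near 0 in both groups.

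Genes of axon guidance and vessel growth were called in both directions. Of 32 tested semaphorins, plexins and neuropilins, 3 were called higher (9.4% against 2.9% of all tested genes) and 2 lower (6.2% against 1.49%). SEMA5A had 37.5 and 71.4 RPKM in parental controls and 87.9 and 134 in MEK5DD libraries (log2 fold change 1.06, adjusted p = 0.0136), and SEMA3A had 2.0 and 1.85 RPKM in parental controls and 2.94 and 3.82 in MEK5DD libraries (log2 fold change 0.67, adjusted p = 0.0102). SEMA3F, a secreted semaphorin that binds neuropilin 2, had 16.6 and 18.2 RPKM in parental controls and 6.04 and 5.85 in MEK5DD libraries (log2 fold change -1.47, adjusted p = 5.54e-05), and SEMA4D had 0.815 and 1.26 RPKM in parental controls and 0.11 and 0.346 in MEK5DD libraries (log2 fold change -1.08, adjusted p = 0.00105). The family was thus mixed, although 13 of 32 passed the adjusted p alone as lower (40.6% against 17.0%). Of 18 ephrins and Eph receptors, the receptor EPHB1 and the ligand EFNA1 were called lower and none higher, and 9 passed the adjusted p alone as lower. EPHB1 went from 8.69 and 8.03 RPKM to 1.12 and 2.0 (log2 fold change -2.14, adjusted p = 1.24e-05) and EFNA1 from 5.71 and 5.02 RPKM to 2.38 and 2.23 (log2 fold change -1.06, adjusted p = 0.000528). Of 23 angiogenic factors and receptors, 3 were called higher (13.0% against 2.9%) and 2, EFNA1 among them, lower (8.7% against 1.49%). FGF2, a fibroblast growth factor, had 4.07 and 4.78 RPKM in parental controls and 9.39 and 11.8 in MEK5DD libraries (log2 fold change 1.17, adjusted p = 0.000153). PDGFA, a platelet-derived growth factor, had 29.1 and 31.5 RPKM in parental controls and 65.5 and 65.4 in MEK5DD libraries (log2 fold change 1.10, adjusted p = 0.000114), and ANGPTL2 had 0.483 and 0.673 RPKM in parental controls and 4.16 and 2.8 in MEK5DD libraries (log2 fold change 1.87, adjusted p = 1.96e-05). ANGPT1, the agonist of the receptor TIE2, fell from 61.7 and 76.7 RPKM to 27 and 26.5 (log2 fold change -1.35, adjusted p = 4.58e-05). FGF2, PDGFA and ANGPTL2 thus lay higher in both MEK5DD libraries than in either parental control, and ANGPT1 lower.

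Of 28 TGF-beta and YAP response genes, 6 were called higher (21.4% against 2.9% of all tested genes) and ID1, an inhibitor of differentiation and target of BMP signalling, lower (3.6% against 1.49%). At the adjusted p alone the list was more even, with 8 higher and 5 lower. INHBA, a subunit of activin A, had 38.5 and 42.6 RPKM in parental controls and 79.6 and 104 in MEK5DD libraries (log2 fold change 1.16, standard error 0.15, adjusted p = 0.000375), and BMP2, a ligand of the same superfamily, had 2.97 and 3.51 RPKM in parental controls and 6.04 and 6.15 in MEK5DD libraries (log2 fold change 0.82, standard error 0.11, adjusted p = 0.000507). LTBP2, a latent TGF-beta binding protein, went from 36.1 and 49.5 RPKM to 63.5 and 82.7, NUAK2 from 0.637 and 0.52 RPKM to 1.16 and 1.53 and ANKRD1 from 2.75 and 2.16 RPKM to 4.21 and 4.58. ID1 went from 8.19 and 5.47 RPKM to 3.06 and 2.46 (log2 fold change -1.15, adjusted p = 0.000621). CTGF, a YAP target, had 243 and 220 RPKM in parental controls and 304 and 377 in MEK5DD libraries (log2 fold change 0.55, adjusted p = 0.00584), short of 1.5-fold. The median of the list was 0.01.

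Antioxidant genes of the NRF2 pathway leaned down. Of 22 tested, 3 were called lower and none higher, 11 passed the adjusted p alone as lower, against 17.0% of all genes, and the median was -0.34. The 3 were the aldo-keto reductases AKR1C1, AKR1C2 and AKR1C3, close paralogs that can share reads. AKR1C2 had 26.7 and 25.2 RPKM in parental controls and 8.22 and 8.79 in MEK5DD libraries (log2 fold change -1.55, adjusted p = 2.51e-05), AKR1C1 62.6 and 57.5 RPKM in parental controls and 25.8 and 18.8 in MEK5DD libraries (log2 fold change -1.43, adjusted p = 9.45e-05) and AKR1C3 66.1 and 54.4 RPKM in parental controls and 34.9 and 24.9 in MEK5DD libraries (log2 fold change -1.01, adjusted p = 0.000604). NQO1, a quinone reductase, had 532 and 564 RPKM in parental controls and 367 and 368 in MEK5DD libraries (log2 fold change -0.58, adjusted p = 0.00124), and HMOX1, haem oxygenase 1, had a log2 fold change of -0.48 (adjusted p = 0.00911), neither past 0.5-fold. Of 22 ATF4 and amino acid stress genes, DDIT3, DDIT4 and TRIB3 were called higher (13.6% against 2.9% of all tested genes) and none lower. DDIT3 (CHOP), a stress transcription factor, had 12.4 and 11.2 RPKM in parental controls and 24.6 and 17.3 in MEK5DD libraries (log2 fold change 0.78, adjusted p = 0.00349), DDIT4, an inhibitor of mTORC1, had 149 and 128 RPKM in parental controls and 223 and 250 in MEK5DD libraries (log2 fold change 0.78, adjusted p = 0.000621), and TRIB3 had 64 and 48.1 RPKM in parental controls and 80.2 and 94.3 in MEK5DD libraries (log2 fold change 0.64, adjusted p = 0.0105). Of 24 cholesterol synthesis genes, 2 were called higher (8.3% against 2.9%) and none lower. Among the 2 was the sterol desaturase SC5D, which went from 61.5 and 62.3 RPKM to 112 and 102 (log2 fold change 0.79, adjusted p = 0.000114). Of 30 glycolysis and hypoxia genes, only CA12, a carbonic anhydrase, was called (3.3% lower, against 1.49% of all tested genes). It went from 34.6 and 40.5 RPKM to 17.4 and 18.5 (log2 fold change -1.04, adjusted p = 0.000229).

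Of 42 interferon-stimulated genes, 1 was called in each direction (2.4% each way), near the 2.9% higher and 1.49% lower of all tested genes. OAS1, a sensor of double-stranded RNA, had 2.69 and 2.38 RPKM in parental controls and 1.04 and 0.557 in MEK5DD libraries (log2 fold change -1.25, adjusted p = 0.000528), and IFI27 had 2.03 and 1.19 RPKM in parental controls and 4.79 and 3.81 in MEK5DD libraries (log2 fold change 1.21, adjusted p = 0.00169). At the adjusted p alone 16 of the 42 were lower (38.1% against 17.0%), MX1 among them with 2.14 and 2.67 RPKM in parental controls and 0.972 and 1.14 in MEK5DD libraries (log2 fold change -0.90, adjusted p = 0.0006), and the median was -0.20. None of 17 genes of HLA class I antigen presentation was called by limma or by voom, with 7 at an unadjusted p under 0.05. B2M, the light chain of HLA class I, had 1166 and 1027 RPKM in parental controls and 1438 and 1005 in MEK5DD libraries, and the chaperone CALR had 2066 and 2081 RPKM in parental controls and 1764 and 1723 in MEK5DD libraries. Among 16 tested cancer-testis antigens, normally limited to germ cells, 3 were called in each direction (18.8% each way, against 2.9% and 1.49% of all tested genes). At the adjusted p alone 3 were higher and 6 lower (37.5% lower, against 17.0%). MAGEB16, XAGE2 (1.5 and 1.57 RPKM in parental controls and 5.96 and 3.9 in MEK5DD libraries) and MAGEC2 (1.63 and 1.31 RPKM in parental controls and 3.01 and 3.04 in MEK5DD libraries) were called higher. SSX1 (14.3 and 14.7 RPKM in parental controls and 3.67 and 3.36 in MEK5DD libraries), MAGEA8 (1.38 and 1.52 RPKM in parental controls and 0.133 and 0.131 in MEK5DD libraries) and PAGE2 (46.2 and 38.9 RPKM in parental controls and 20.6 and 11.8 in MEK5DD libraries) were called lower, and reads of these families can be shared between paralogs. HIST1H2BD was the only one of 27 histone genes called (3.7% lower, against 1.49%), from 8.33 and 5.87 RPKM to 3.16 and 2.58 (log2 fold change -1.16, adjusted p = 0.000884). At the adjusted p alone 9 of the 27 were lower (33.3% against 17.0%) and none higher, with a median of -0.33. HOXB5 was the only one of 29 HOX genes called (3.4% higher, against 2.9%), from 1.18 and 1.94 RPKM to 3.49 and 2.85 (log2 fold change 0.85, adjusted p = 0.00318). None of 39 clustered protocadherins was called by limma or by voom, with 5 at an unadjusted p under 0.05, and PCDHGC3, whose exons are shared within its cluster, had 93.7 and 118 RPKM in parental controls and 81.3 and 101 in MEK5DD libraries.

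Mitochondrially encoded genes followed the replicate number more than the group. MT-ND4, a subunit of respiratory complex I, had 734 and 271 RPKM in parental controls and 2157 and 598 in MEK5DD libraries (log2 fold change 1.35, adjusted p = 0.0844), and MT-CO2 had 877 and 417 RPKM in parental controls and 1735 and 721 in MEK5DD libraries (log2 fold change 0.89, adjusted p = 0.111). In both groups replicate 1 was more than 2-fold above replicate 2, and the groups overlapped. None of the 13 mitochondrially encoded genes was called by limma or by voom, with 7 at an unadjusted p under 0.05 and a median log2 fold change of 0.96. With the replicate block 7 were called higher, MT-ND4 (adjusted p = 0.029) and MT-CO2 (0.0432) among them. In the 6 Hs-578T libraries with the block limma called 0. Without parental replicate 1 the calls were 11 and without MEK5DD replicate 2 they were 13, whereas without parental replicate 2 or MEK5DD replicate 1 they were 0, with medians of 0.35 and 0.20. Of 28 tested nuclear genes of the respiratory chain and 84 cytosolic ribosomal protein genes none was called by limma or by voom, with 4 and 3 at an unadjusted p under 0.05. Without MEK5DD replicate 2, 14 of the ribosomal protein genes were called higher (median 0.38), and without MEK5DD replicate 1 none was called and the median was -0.16, so that 1 library decides their direction. RPL8 had 2431 and 2033 RPKM in parental controls and 2611 and 1885 in MEK5DD libraries and ATP5B 770 and 670 RPKM in parental controls and 739 and 722 in MEK5DD libraries. None of 10 S100 genes was called by limma or by voom, with 4 at an unadjusted p under 0.05, and S100A6 had 2677 and 2067 RPKM in parental controls and 4115 and 2696 in MEK5DD libraries (log2 fold change 0.50, adjusted p = 0.0889). The replicates also differed by gene length. From the shortest to the longest of 5 equal bins of the tested genes, replicate 1 minus replicate 2 went from a median of 0.16 to -0.25 in MEK5DD and from 0.14 to -0.18 in parental controls, against 0.00 to -0.04 in ERK5-ko, while the median of MEK5DD against parental controls stayed between -0.11 and -0.05. A fit with gene length corrected gave 414 genes called higher and 207 lower, and kept 389 of the 398 and 199 of the 204 calls. The part of RNA quality in these values was not tested.

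**Figure D5:**
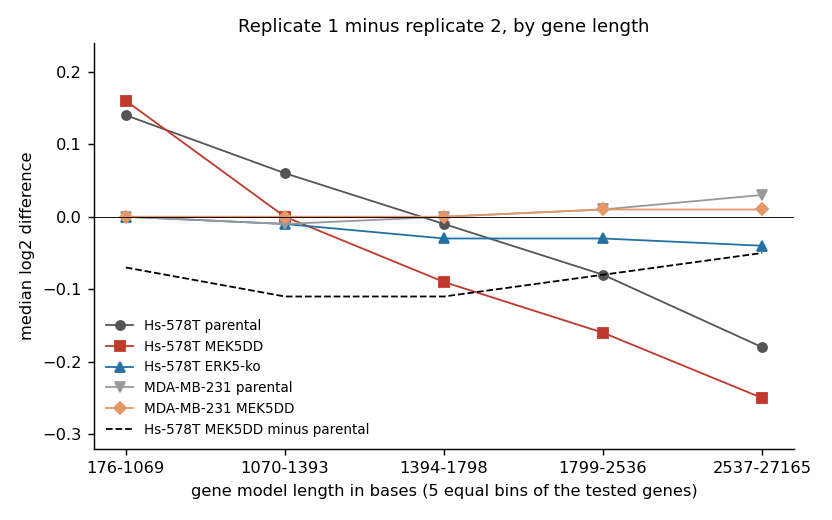
Median log2 difference between replicate 1 and replicate 2 within groups, and between MEK5DD and parental controls, in 5 equal bins of the 13737 tested genes by gene model length. The replicate lines of MEK5DD and parental controls fall together from 0.16 and 0.14 to -0.25 and -0.18, and the line of MEK5DD against parental controls stays between -0.11 and -0.05.

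The libraries labelled ERK5-ko carry the same passage tags as those labelled MEK5DD, so the contrast of these modified cells has no gap in passage tags. MAPK7 RNA was not lower in them (17.8 and 18.1 RPKM), so directions refer to their label. Between the 2 groups 1389 genes were called higher in MEK5DD (10.1% of the genes tested) and 800 lower (5.82%), more than against parental controls. This contrast shares its MEK5DD libraries with the one above, and the values are given side by side. IGFBP5 had 1.67 and 1.32 RPKM in ERK5-ko and was 4.76 higher in MEK5DD on the log2 scale (adjusted p = 3.04e-09), and KRT14, with 5.2 and 5.88 RPKM, was 4.46 higher (adjusted p = 1.67e-09). MFAP4, KRT17, MAGEB16, ALS2CL, FAP and COL15A1 were also higher against ERK5-ko, by 2.38 to 4.80. These genes thus stood above both other groups. MUC15 had 0.0901 and 0.13 RPKM in ERK5-ko (log2 difference 0.01, adjusted p = 0.923), MAGEA8 0.102 and 0.139 (log2 difference 0.03, adjusted p = 0.831) and EFNA1 2.07 and 2.56 (log2 difference -0.00, adjusted p = 1). For these genes MEK5DD and ERK5-ko lay on the same side of the parental controls. PI15 (0.178 and 0.0508 RPKM in ERK5-ko), MGP (68.8 and 61.8) and PAGE2 (6.22 and 6.07) were lower still in ERK5-ko. On the upper side, INHBA (90.6 and 105 RPKM), TNC (9.51 and 8.84), CCND1 (259 and 277) and SC5D (118 and 124) had levels in ERK5-ko near those in MEK5DD, with differences of -0.10, 0.28, -0.10 and -0.17 (adjusted p = 0.606, 0.159, 0.431 and 0.119). NLGN4X (27.4 and 27.7 RPKM) and ANGPT1 (79.5 and 83.8) in ERK5-ko were above the parental controls, as were ACTA2 (494 and 457) and FHL1 (1166 and 1149), so these genes were lower than in parental controls in MEK5DD alone among the 3 Hs-578T groups.

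In MDA-MB-231, MEK5DD went with 1049 genes called higher (7.64%) and 867 lower (6.31%). Of the 398 genes higher in Hs-578T MEK5DD, 65 were also called higher there (16.3% of the 398 and 6.2% of the 1049), and 54 were called lower (13.6%). Of the 204 lower genes, 26 were also lower (12.7% of the 204 and 3.0% of the 867), and 28 were higher (13.7%). In both directions the shares on the same and on the opposite side were close. TNC was higher in both lines, with 18.2 and 20.6 RPKM in MDA-MB-231 parental controls and 105 and 105 in MEK5DD (log2 fold change 2.41, adjusted p = 2.91e-07). TAGLN (log2 fold change there 1.47, adjusted p = 1.06e-05), BMP2 (log2 fold change there 2.04, adjusted p = 8.61e-08) and DDIT3 (log2 fold change there 1.46, adjusted p = 1.3e-05) were also higher in both lines. IGFBP4 (log2 fold change there -1.25, adjusted p = 7.81e-06), OAS1 (log2 fold change there -2.02, adjusted p = 2.98e-06), EFNA1 (log2 fold change there -1.38, adjusted p = 1.71e-05) and CA12 (log2 fold change there -4.77, adjusted p = 2.87e-10) were called lower in both. Genes that went opposite ways in the 2 lines include KRT7 and COL7A1, up in Hs-578T and down in MDA-MB-231, with log2 fold changes there of -2.33 and -1.61. LAMA4 and SSX1 were down in Hs-578T and up in MDA-MB-231, LAMA4 from 0.917 and 0.935 to 11.9 and 10.2 RPKM and SSX1 from 0.126 and 0.279 to 18 and 17.1. The difference of the 2 effects passed the adjusted p for 5438 of all tested genes (39.6%), and for LAMA4 it was -4.06 (adjusted p = 8.83e-07). Of the 19 genes of the ERK5 lists that were not chosen as leading or abundant calls, 9 differed between the lines at this level. MFAP4, BRINP1 and CXCL12 were at 0 or at most 0.0617 RPKM in the MDA-MB-231 libraries of both groups, so for them MDA-MB-231 gives little to compare.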

How the data were processed

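RNA-seq libraries were made by the authors with a stranded mRNA kit. The submitters' processing notes name Trimmomatic 0.32, TopHat2 2.1.1, DESeq2 1.12.4 in R 3.3.1 and the build GRCh38, with no roles given. The authors deposited RPKM values, scaled to gene model length and library total. Whole reads were recovered for all 32152 genes (within 0.0001 reads), whereas totals set 1% off recovered 0 of 500. Library totals are therefore known, and all 12 columns were matched to a sample.

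Tests covered the 13737 protein-coding genes that reached 0.5 RPKM in 2 or more of the 12 libraries, leaving out 3928. Group means of log2(RPKM + 0.5) for the 6 groups were estimated in limma 3.58.1 (R 4.3.3) with a mean-variance trend, which left 6 residual degrees of freedom, and p-values were adjusted by Benjamini-Hochberg over all tested genes. Calls needed an adjusted p under 0.05 together with more than 1.5-fold (higher) or less than 0.5-fold (lower), after the study's thresholds. With 200 of the 13737 genes changed 3-fold in simulated data of Hs-578T MEK5DD against parental controls, 199 were called, and 3 of the 13537 unchanged genes. The simulated replicates were independent and had the same dispersion in every group. The real replicates deviate together and differ in spread between groups, so the simulation does not give the error of the calls reported here. Levels of 3 reads or fewer in each library of a group were set to a floor of 3 reads, which covers counting error only.

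Named genes are those of the 2 ERK5 lists, the 8 most changed called genes in each direction averaging 1 RPKM or more and with no overlap between groups, the 5 most abundant called genes in each direction, up to 4 called genes with the largest change in each of 36 gene lists, and up to 2 abundant genes of a list without calls. A few genes that this rule picks are not reported here. Further members of these lists and the cell type markers are named as examples chosen after their values were seen. The comparison, the lists and this rule were chosen with earlier results of these data known.

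Replicate numbers were taken to pair libraries, since the deviations of same-numbered libraries correlated at 0.1074 to 0.5406 in the 6 comparisons of groups of the same line. The fit with this block was an alternative, as were other pseudocounts, filters, scalings, library sets, gene types and fold thresholds, and leaving out each replicate. Fits of fewer libraries with the block and a gene-length correction (spline with 5 degrees of freedom) were added after seeing the data. limma voom on recovered reads was a further alternative. Promoter windows are from RefSeq on GRCh38.p14.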

Additional observations from a re-analysis of the deposited data

Results flagged for a closer look

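For 32 of 45 genes looked at, the effect of MEK5DD in Hs-578T differed from that in MDA-MB-231, by the contrast of contrasts in limma at a Benjamini-Hochberg adjusted p under 0.05. Of these 45, 26 were leading or abundant genes chosen because they were called in Hs-578T, which favours a difference from the other line, so their 23 are a description and are read against no background. Of the 19 genes of the ERK5 lists, 9 differed, where 39.6% of all tested genes did. The values below are the Hs-578T effect minus the MDA-MB-231 effect on the log2 scale. Passage tags differ between parental controls and MEK5DD libraries in both lines, and their part in these differences was not tested.

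In the ERK5 lists, the difference was -3.26 for MAP2K5, the MEK5 gene itself, which was 1.42-fold higher in Hs-578T MEK5DD and 3.77 higher on the log2 scale in MDA-MB-231. It was 0.98 for CCND1, 0.86 for MEF2A, -1.03 for MEF2B, -1.13 for SOX4, -0.45 for GJA1, -0.81 for KLF4, -1.06 for NR4A2 and 1.03 for PRKCZ. KLF4 had a log2 fold change of -0.54 in Hs-578T and 0.27 in MDA-MB-231, and NR4A2 one of -0.55 and 0.52.

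Among the genes most changed upward in Hs-578T, the difference was 2.76 for MFAP4, 2.65 for MAGEB16, 1.83 for ALS2CL, 3.33 for KRT17, 4.79 for RARRES2, 2.24 for IGFBP5, 2.57 for SERPINB7 and 2.39 for CNN1. RARRES2 moved in opposite directions, up in Hs-578T (2.36) and from 33 and 30.7 to 5.4 and 5.62 RPKM in MDA-MB-231. MFAP4, MAGEB16, IGFBP5 and CNN1 were under 0.25 RPKM in the MDA-MB-231 libraries of both groups.

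Among those most changed downward, it was -3.92 for HBE1, -2.43 for BRINP1, -2.54 for PI15, -2.59 for NLGN4X, -2.84 for MUC15, -3.75 for REEP1, -2.92 for VAV3 and -3.24 for C7. REEP1 was 2.64 and 2.66 RPKM in MDA-MB-231 parental controls and 6.02 and 5.85 in its MEK5DD libraries, higher where Hs-578T MEK5DD was lower. The other genes of this group apart from HBE1 were under 0.1 RPKM in the MDA-MB-231 libraries compared.

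Among abundant genes it was 1.07 for MYL12A, 0.64 for TPM1, 1.19 for SCD, 2.75 for FHL1, -1.35 for MGP, -1.23 for TOP2A and -1.20 for CXCL12. FHL1 was lower in both lines, more so in MDA-MB-231 (-3.78) than in Hs-578T (-1.03).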

How the results depend on the processing

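The 398 genes called higher and 204 called lower in Hs-578T MEK5DD became 462 and 411 with a pseudocount of 0.1, 308 and 132 with a pseudocount of 1, 240 and 191 in the 6 Hs-578T libraries alone, 17 and 45 in the 4 libraries alone, and 453 and 458 with limma voom. At the adjusted p alone they were 884 and 2329, and 129 were at least 2-fold higher. With the replicate block added to the 4 libraries, 1 residual degree of freedom was left and limma called 0 and 0, with 4359 genes at an unadjusted p under 0.05. Leaving out 1 replicate gave 434 to 574 higher and 204 to 279 lower, and no call of the 602 changed sign in any of these fits. Against ERK5-ko, 1389 and 800 became 2642 and 4224 at the adjusted p alone, and 544 were at least 2-fold higher. Of the 2507 and 2931 genes whose effect was higher or lower in Hs-578T than in MDA-MB-231, 947 and 806 differed at least 2-fold, and this contrast was not run in the 6 Hs-578T libraries, which hold no MDA-MB-231. Counts of lists moved more: the cell cycle list held 5 to 18 genes called lower when 1 replicate was left out.

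With the replicate block, the 602 calls were kept and 417 genes were higher, MT-ND4 and MT-CO2 among those gained, while 204 were lower. The block changed no other call of a named gene. Of 126 named genes, 90 were called and none of these changed sign, but 74 lost their call in the 4 libraries and 17 in the 6 Hs-578T libraries. Reversals were in uncalled genes. With median-ratio scaling and quantile normalization they were MEF2D (0.048 and 0.041), SQSTM1 (0.029 and 0.002) and RPL8 (0.088 and 0.037), and with quantile normalization ATP5B (-0.021). Leaving out 1 replicate gave log2 fold changes of both signs for SOX4 (-0.183 to 0.292), MEF2D (-0.239 to 0.160), MAP3K2 (-0.359 to 0.123), KLF2 (-0.537 to 0.225), B2M (-0.123 to 0.394), S100A11 (-0.013 to 0.254), ATP5B (-0.075 to 0.124) and RPL8 (-0.238 to 0.232). The causes were not tested. Low genes are limited by depth, at a floor of 3 reads per library.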
